A study of Homo sapiens with 14 samples.

Results

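The 10 genes described here encode enzymes that break down the extracellular matrix, their inhibitors, and the urokinase system: *MMP1*, *MMP2*, *MMP7*, *MMP10*, *MMP14*, *TIMP1*, *TIMP2*, *TIMP3*, *PLAU* and *PLAUR*. They were chosen by name and matched to the symbol column of the A549 and H1792 count tables, and all 10 are among the 26732 gene names listed in both. A549 and H1792 are established human lung adenocarcinoma cell lines. Each was kept for 48 h in 0.1 µM AMG900, a small molecule that inhibits the aurora kinases needed for mitosis, or in its solvent DMSO. Gene expression was measured by RNA sequencing: A549 (grown in DMEM) has 4 DMSO and 4 AMG900 libraries and H1792 (grown in RPMI medium) has 3 DMSO and 3 AMG900 libraries. The protocol in the labels describes 3 dishes per treatment, while A549 lists 4 libraries per treatment, and no label says that dishes were set up independently, so the p-values measure the spread between these libraries, which may be in part technical.

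Matrix metalloproteinases are zinc enzymes that are made as inactive proenzymes and, once the propeptide is removed, cut collagens, proteoglycans and other matrix proteins. The tissue inhibitors of metalloproteinases (TIMPs) bind the active site of these enzymes, and TIMP2 has a further role in bringing the MMP2 proenzyme to MMP14 on the cell surface for activation. Urokinase, the product of *PLAU*, is held at the cell surface by its receptor PLAUR and turns plasminogen into plasmin, which degrades fibrin and can remove the propeptide of several metalloproteinases. In lung adenocarcinoma these enzymes are studied for their part in the passage of tumor cells through basement membrane and stroma.

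Total counts were 4254644 to 16381683 per library with DMSO and 10932815 to 18962883 with AMG900 in A549, and 42760874 to 65617740 and 51295049 to 79902934 in H1792. A549 DMSO replicate 1 was the shallowest library and stood apart from the other A549 DMSO libraries on the second principal component, at 50.6 against -20.7 to -18.7. Of 6 epithelial markers, 5 were over 1 CPM (reads scaled by library size) in each line, *EPCAM* being under 1 CPM in A549 and *CDH1* in H1792. Their summed level was 7973 to 10385 CPM with DMSO and 10747 to 12291 CPM with AMG900 in A549, where all 5 tested were called higher, led by *KRT19* (log2 fold change 1.58) and *CDH1* (0.82). In H1792 it was 1539.6 to 1926 and 1934 to 1973 CPM, with 1 of 6 called higher (*KRT19*, 0.54), about the share over all genes. Fibroblast markers were over 1 CPM for 1 of 7 genes in A549 (*COL1A1*, 97.3 to 43.6 CPM, called lower) and for 7 of 7 in H1792, where 6 were called lower, led by *LUM* (-1.20) and *COL3A1* (-1.13), and the sum was 3476 to 4404 CPM with DMSO and 2581 to 2653 CPM with AMG900. Summed leukocyte markers were at 2.64 to 7.12 and 14.6 to 16.8 CPM in A549, where *CD79A* (2.64) and *CD14* (1.27) were called higher and *PTPRC*, *CD3E* and *LYZ* were under 1 CPM, and at 1.54 to 1.82 and 2.57 to 3.18 CPM in H1792. Summed endothelial markers were at 0.705 to 6.37 and 0.453 to 1.62 CPM in A549 and at 4.79 to 16.7 and 9.20 to 9.96 CPM in H1792. Of the 4 tested in H1792, *CDH5* (2.29, from only 0.0799 to 0.390 CPM) and *PECAM1* (0.76) were called higher. *KDR* (0.30, edgeR adjusted p = 0.41) and *VWF* were not called. *VWF* went the other way (-2.72, adjusted p = 0.0618), from 3.74 ± 5.95 to 0.562 ± 0.0149 CPM (SD). Of all genes tested, 17.2% were called higher and 17.8% lower in A549, and 16.2% and 18.8% in H1792. The part of these marker levels in the results that follow was not tested. In RNA from whole cultures, fewer cells of a kind and less RNA per cell cannot be told apart.

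AMG900 raised most of the metalloproteinase, TIMP and urokinase genes that could be tested, and none was called lower in either cell line with the standard scaling. In A549, *MMP2*, *MMP7*, *TIMP1*, *PLAU* and *PLAUR* rose, by 1.55-fold to 2.79-fold. In H1792, *MMP1*, *MMP14*, *TIMP1*, *TIMP3*, *PLAU* and *PLAUR* rose, by 1.28-fold to 5.09-fold. *TIMP1*, *PLAU* and *PLAUR* were thus called higher in both lines, while *TIMP2* was called in neither. With an offset for the GC content of transcripts, the *MMP14* and *PLAUR* calls in H1792 were lost. There 4 of 9 genes were called higher, where 2176 of all 15017 were. *TIMP2* was called lower there (-0.24, edgeR adjusted p = 3.4e-04), where 3453 of the 15017 were. The share of all reads that fell on the 10 genes was 0.129% to 0.136% with DMSO and 0.172% to 0.184% with AMG900 in A549, and 0.333% to 0.339% and 0.416% to 0.427% in H1792.

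In A549, 7 of the 10 genes passed the filter on low counts, and 5 of these were higher at a false discovery rate (FDR) of 0.01 by the edgeR quasi-likelihood test, where 17.2% of all 13174 genes tested were called higher. None was lower, against 17.8% of all genes. The 7 genes had a median log2 fold change of 0.90 and all genes tested one of -0.01. The AMG900 libraries lay wholly above the DMSO libraries for the same 5 of the 7 genes, as for 21.9% of all genes tested (22% lay wholly below), and the groups overlapped for the other 5 of the 10. In H1792, 9 genes passed the filter and 6 were called higher, where 16.2% of 15017 genes were, with none lower against 18.8% of all genes. Their median log2 fold change was 0.46 and that of all genes 0.01. All AMG900 libraries were above all DMSO libraries for 7 of the 9 genes tested, the exceptions being *MMP7* and *TIMP2*, where 30.1% of all genes tested were apart in that direction and 29.6% in the other. *MMP10*, under the filter, was also apart, with 2 reads against 1 in its closest libraries.

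**Figure D1:**
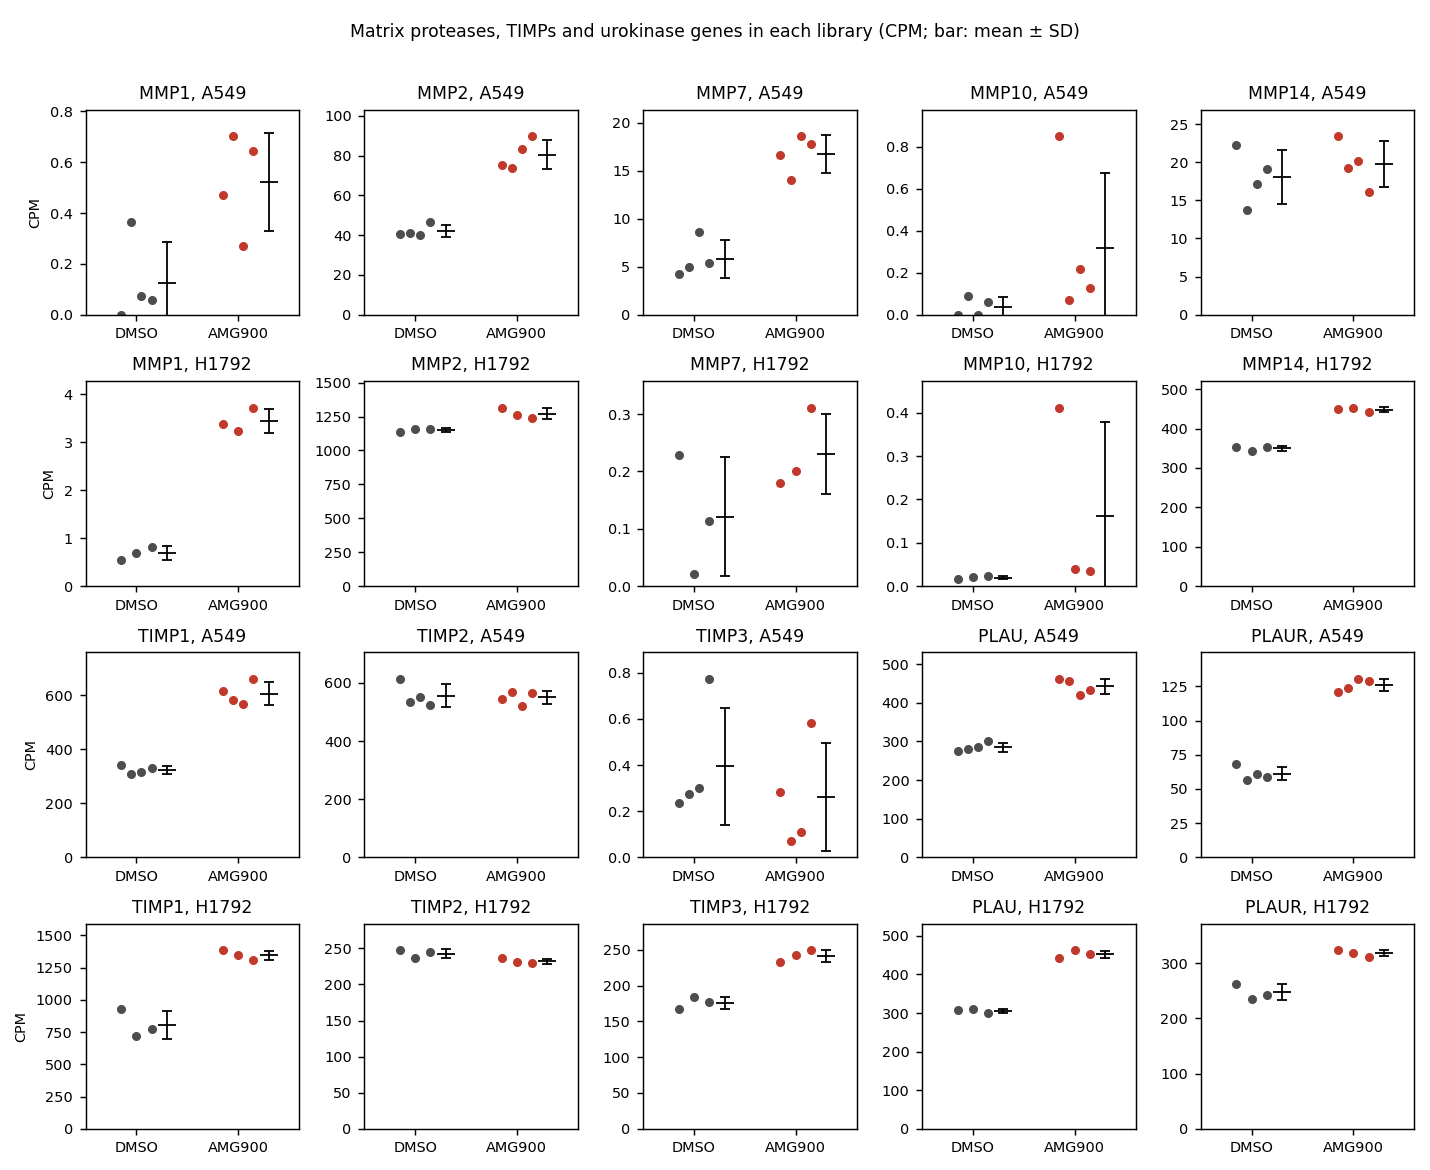
Level of each gene in every library, in CPM, reads scaled by library size (vertical axis, linear and starting at 0), for A549 and H1792 in separate panels with DMSO in grey and AMG900 in red; each point is 1 library and the bar beside a group is the mean ± SD. The AMG900 points of *TIMP1*, *PLAU* and *PLAUR* lie above the DMSO points in both lines, and those of *TIMP2* do not.

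Short letter runs of the kind that AP-1 and ETS factors bind are a textbook feature of metalloproteinase and urokinase-receptor promoters. *MMP7*, *MMP10*, *PLAUR* and *TIMP1* are shown with the 250 bases upstream of their start, and each of these windows holds a match to the letters searched. Windows with no match are not shown. The sequences are from RefSeq on GRCh38.p14, 5′ to 3′ on the strand of the gene, with the searched letters in capitals and everything else in lower case. The AP-1 letters searched, on both strands, were TGANTCA. For ETS factors they were AGGAAG, which a match on the other strand shows as its reverse complement. For the TATA box they were TATAAA. No match overlaps another in these windows. The windows are chr11:102530748-102530997 (minus strand) for *MMP7*, chr11:102780629-102780878 (minus strand) for *MMP10*, chr19:43670170-43670419 (minus strand) for *PLAUR* and chrX:47582186-47582435 (plus strand) for *TIMP1*.
MMP7: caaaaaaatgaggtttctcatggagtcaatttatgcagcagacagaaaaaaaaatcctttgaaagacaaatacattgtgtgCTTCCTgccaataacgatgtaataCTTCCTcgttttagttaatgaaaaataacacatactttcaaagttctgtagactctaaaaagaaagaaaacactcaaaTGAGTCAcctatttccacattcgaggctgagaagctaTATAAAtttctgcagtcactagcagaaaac
MMP10: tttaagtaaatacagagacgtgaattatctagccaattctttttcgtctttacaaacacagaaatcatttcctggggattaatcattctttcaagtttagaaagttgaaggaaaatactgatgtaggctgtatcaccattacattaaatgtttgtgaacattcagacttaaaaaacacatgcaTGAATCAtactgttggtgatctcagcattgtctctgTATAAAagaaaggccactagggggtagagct
PLAUR: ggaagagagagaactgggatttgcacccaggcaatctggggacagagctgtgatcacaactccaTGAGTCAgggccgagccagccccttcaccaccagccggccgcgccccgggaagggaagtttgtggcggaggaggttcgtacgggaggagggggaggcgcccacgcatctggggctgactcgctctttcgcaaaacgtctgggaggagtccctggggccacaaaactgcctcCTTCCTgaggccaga
TIMP1: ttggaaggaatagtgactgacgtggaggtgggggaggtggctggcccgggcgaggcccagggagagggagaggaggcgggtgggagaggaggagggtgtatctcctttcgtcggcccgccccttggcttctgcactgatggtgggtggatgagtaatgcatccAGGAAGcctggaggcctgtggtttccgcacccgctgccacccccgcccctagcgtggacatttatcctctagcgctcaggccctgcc
TGANTCA was present once each in *MMP7* and *MMP10*, starting at -67 in both, and in *PLAUR*, starting at -186. Of 35116 promoter windows of this length, 6.57% hold it. AGGAAG, held by 28.7% of all windows, was in *MMP7* on the other strand (-169 and -145), in *TIMP1* (-87), in *PLAUR* on the other strand (-15) and in 1 of the 2 windows of *PLAU* (-221). TATAAA, held by 10.7%, was at -30 in *MMP7* and at -31 in *MMP10*. The windows of *MMP14*, *TIMP3* and the other start of *PLAU* hold none of these letters. A match is a run of letters and was not tested as a binding site. *MMP1*, *MMP2* and *TIMP2* were not searched.

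*MMP1*, the interstitial collagenase that makes the first cut in fibrillar collagens, lies at chr11:102660132-102668891 on GRCh37, in the same cluster of metalloproteinase genes as *MMP10* and *MMP7*. In H1792 it was at 0.535, 0.698 and 0.821 CPM in the DMSO libraries and at 3.38, 3.23 and 3.72 CPM in the AMG900 libraries. Every AMG900 library was above every DMSO library, though the gene stayed among the low ones, with 34 to 36 reads per DMSO library and 162 to 263 per AMG900 library. An antisense gene, *WTAPP1*, shares 150 exonic bases with *MMP1* and had 0 to 11 reads per H1792 DMSO library and 2 to 12 per AMG900 library, and whether counting used strand is not given in the sources used here. The increase was 5.09-fold (log2 fold change 2.35 ± 0.20, standard error; edgeR adjusted p = 1.2e-05) and had the largest fold of the 6 genes called in H1792. In A549 the gene had 0, 4, 1 and 1 reads with DMSO and 5, 10, 5 and 10 with AMG900. A count of 0 in the shallowest library allows up to 0.704 CPM, which is above the highest AMG900 value of 0.702 CPM, so a difference from that library was not detectable at its depth. The A549 groups overlapped, and the difference between 0.125 and 0.523 CPM had p = 0.0571 in an exact two-sided permutation test, whose smallest possible p with 4 against 4 libraries is 0.0286.

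*MMP10*, a stromelysin that cuts proteoglycans and can activate other metalloproteinases, was close to absent from both lines. It had 0, 1, 0 and 1 reads with DMSO and 9, 1, 4 and 2 with AMG900 in A549. In H1792 it had 1 read in each DMSO library and 32, 2 and 2 reads with AMG900. The H1792 AMG900 libraries were all above the DMSO libraries, but 1 library (replicate 1) gave 32 of the 36 AMG900 reads. The gene was under the filter in both lines, and the exact two-sided permutation test gave p = 0.0571 in A549 and p = 0.1 in H1792, the latter the smallest possible with 3 against 3 libraries.

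*MMP2*, or gelatinase A, which degrades basement-membrane collagen and gelatin, lies at chr16:55423612-55540603 on GRCh37. In A549 its level was 40.7, 41.1, 39.9 and 46.7 CPM with DMSO and 75.4, 73.8, 83.4 and 89.7 CPM with AMG900. The groups were well apart, and the gene rose 1.91-fold (log2 fold change 0.93 ± 0.09, edgeR adjusted p = 1.5e-06). In H1792 the gene was far higher to begin with, at 1137, 1159 and 1155 CPM with DMSO and 1315, 1261 and 1238 CPM with AMG900. All 3 AMG900 libraries were above the DMSO libraries, but the log2 fold change of 0.14 ± 0.05 was not called (edgeR adjusted p = 0.0237). With an offset for the GC content of transcripts the H1792 value was -0.09 (adjusted p = 0.111), a turn in direction.

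*MMP7*, or matrilysin, is a small metalloproteinase made mainly by epithelial cells that lacks the hemopexin domain of most of the family. It lies at chr11:102391239-102401481 on GRCh37. In A549 it was at 4.23, 4.92, 8.67 and 5.40 CPM with DMSO and at 16.7, 14, 18.6 and 17.8 CPM with AMG900. The lowest AMG900 library was above the highest DMSO library, and the increase of 2.79-fold was the highest of the 5 genes called in A549 (log2 fold change 1.48 ± 0.20, edgeR adjusted p = 2.6e-05). In H1792 the gene had few reads, 15, 1 and 5 reads with DMSO and 14, 10 and 18 with AMG900. These groups overlapped, and the log2 fold change of 0.82 ± 0.61 was not called (edgeR adjusted p = 0.287).

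*MMP14* encodes a membrane-anchored metalloproteinase that cuts collagen next to the cell and activates the MMP2 proenzyme. It lies at chr14:23305769-23318250 on GRCh37. In H1792 it was at 354, 343 and 353 CPM with DMSO and at 449.8, 453 and 441 CPM with AMG900. The groups did not overlap, and the gene rose 1.28-fold (log2 fold change 0.36 ± 0.05, edgeR adjusted p = 1.4e-04). This call was lost with the GC offset, at a log2 fold change of 0.06 (adjusted p = 0.272); the transcript has a GC content of 58.9%, the highest of the 10. In A549 the DMSO libraries were at 22.3, 13.8, 17.2 and 19.1 CPM and the AMG900 libraries at 23.4, 19.2, 20.2 and 16.1 CPM. The groups overlapped, and the log2 difference of 0.14 ± 0.15 (edgeR adjusted p = 0.476) turned to -0.20 with the GC offset.

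Among the inhibitors, *TIMP1* rose in both lines and was the most abundant per kilobase of transcript (RPKM), though in A549 with DMSO its CPM was below that of *TIMP2*. TIMP1 inhibits most secreted metalloproteinases and is a weak inhibitor of MMP14. The gene lies at chrX:47441807-47446188 on GRCh37. In A549 it was at 341, 308, 317 and 331 CPM with DMSO and at 616, 581, 566 and 659 CPM with AMG900. In H1792 the DMSO libraries were at 926, 718 and 775 CPM and the AMG900 libraries at 1382, 1346 and 1310.2 CPM. In neither line did the groups overlap, and the spread was widest among the H1792 DMSO libraries, where replicate 1 was the highest. The increase was 1.87-fold in A549 (log2 fold change 0.90 ± 0.07, edgeR adjusted p = 8.3e-08) and 1.67-fold in H1792 (0.74 ± 0.08, adjusted p = 5.3e-05).

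*TIMP2*, whose product inhibits metalloproteinases and also forms the bridge between MMP14 and the MMP2 proenzyme, behaved differently from *TIMP1*. It lies at chr17:76849059-76921469 on GRCh37. In A549 it was at 613, 536, 552 and 525 CPM with DMSO and at 545, 569, 522 and 564 CPM with AMG900. In H1792 it was at 247, 236 and 245 CPM with DMSO and at 236, 231 and 229 CPM with AMG900. The groups overlapped in both lines. The log2 fold changes were -0.02 ± 0.07 in A549 (edgeR adjusted p = 0.867) and -0.06 ± 0.05 in H1792 (adjusted p = 0.288). The H1792 value was -0.24 with the GC offset and called lower (adjusted p = 3.4e-04).

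*TIMP3*, which binds to the matrix and also inhibits ADAM17 and aggrecanases, was expressed in H1792 and nearly absent from A549. It lies at chr22:33197691-33259028 on GRCh37. The H1792 libraries were at 167, 184 and 177 CPM with DMSO and at 233, 243 and 249 CPM with AMG900. The groups were apart, and the gene rose 1.37-fold (log2 fold change 0.46 ± 0.06, edgeR adjusted p = 8.8e-05). In A549 it had 1, 3, 4 and 13 reads with DMSO and 3, 1, 2 and 9 with AMG900. Those groups overlapped, at means of 0.395 and 0.261 CPM (exact two-sided permutation test, p = 0.486).

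*PLAU*, the urokinase gene, lies at chr10:75668935-75677254 on GRCh37. In A549 it was at 274, 279.9, 285 and 301 CPM with DMSO and at 461, 455, 421 and 433 CPM with AMG900. In H1792 the DMSO libraries were at 308, 309.6 and 299 CPM and the AMG900 libraries at 443, 462 and 452 CPM. The levels of the lines were close in both conditions and the groups did not overlap in either. The increase was 1.55-fold in A549 (log2 fold change 0.63 ± 0.06, edgeR adjusted p = 1.5e-06) and 1.48-fold in H1792 (0.57 ± 0.05, adjusted p = 1.1e-05). An antisense gene, *C10orf55*, shares 429 exonic bases with *PLAU*, and it had 10 to 32 reads per library in A549 and 90 to 159 in H1792. The strand limit given for *MMP1* holds here too.

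*PLAUR*, the gene of the lipid-anchored urokinase receptor, lies at chr19:44150247-44174699 on GRCh37. In A549 it was at 68.1, 56.8, 61.1 and 58.9 CPM with DMSO and at 121, 124, 130.3 and 129 CPM with AMG900. In H1792 the DMSO libraries were at 263, 235 and 243 CPM and the AMG900 libraries at 323, 318 and 312 CPM. The groups were apart in both lines, with a wider gap in A549. The increase was 2.07-fold in A549 (log2 fold change 1.05 ± 0.08, edgeR adjusted p = 7.1e-08) and 1.28-fold in H1792 (0.36 ± 0.05, adjusted p = 3.7e-04). The H1792 call was lost with the GC offset, at a log2 fold change of 0.13 (adjusted p = 0.0125), whereas the A549 value was 0.80 and remained called.

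**Figure D2:**
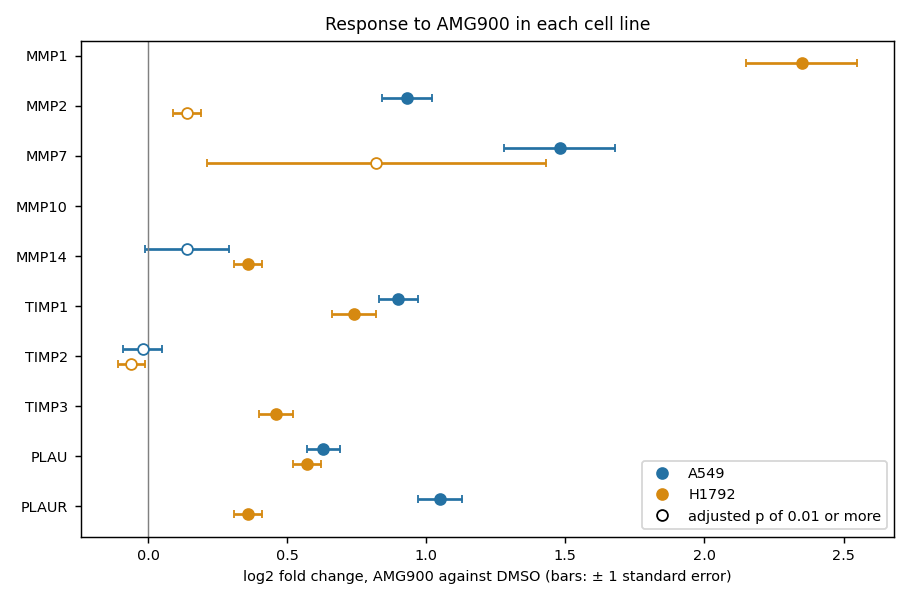
Log2 fold change of AMG900 against DMSO (horizontal axis) for each gene, with A549 in blue and H1792 in orange. Bars are ± 1 standard error, derived from the fold change and the F statistic of the edgeR test. Open circles have an adjusted p of 0.01 or more, and genes under the filter in a line have no point. *MMP2* and *PLAUR* lie farther to the right in A549, at 0.93 and 1.05, than in H1792, at 0.14 and 0.36.

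The response was compared between lines as an interaction term in one fit over all 14 libraries. *MMP2* and *PLAUR* rose less in H1792 than in A549. Of the 9 genes tested, these 2 were called with a lower log2 fold change in H1792 and none with a higher one, against 9.17% and 5.37% of all 14769 genes. For *MMP2* the log2 fold change in H1792 minus that in A549 was -0.86 ± 0.11 (edgeR adjusted p = 7.1e-06), and for *PLAUR* it was -0.77 ± 0.10 (adjusted p = 7.4e-06). The difference was not called for *TIMP1* (-0.24 ± 0.11, adjusted p = 0.13), *PLAU* (-0.14 ± 0.08, adjusted p = 0.223), *TIMP2* (-0.13 ± 0.09, adjusted p = 0.308) or *MMP14* (0.14 ± 0.15, adjusted p = 0.562). For *MMP1*, *MMP7* and *TIMP3*, each with few reads in one line, the standard errors were 0.82, 0.60 and 0.54, so only a large difference could have been detected. The 9 genes had a median difference of -0.14 and all genes one of -0.10. The balance of calls over all genes depends on scaling: 793 genes were higher and 1355 lower with TMM factors, 1012 and 1033 with the size factors of DESeq2, and 988 and 1047 with total counts, and *MMP2* and *PLAUR* were called lower under each.

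With DMSO alone, the matrix protease and inhibitor genes differed widely between the lines, with *TIMP3*, *MMP2* and *MMP14* much higher in H1792 and *MMP7* much higher in A549. All 9 genes tested were called, 7 higher and 2 lower in H1792, where 34.2% of 14769 genes were higher and 31.9% lower. The cell line, the count table, the medium and the depth cannot be told apart in this contrast. *TIMP3* differed most, 404-fold higher in H1792 (log2 8.66 ± 0.19, edgeR adjusted p = 3.4e-18), followed by *MMP7*, which was 41.6-fold lower (-5.38 ± 0.38, adjusted p = 1.4e-10). Without A549 DMSO replicate 4, which had 13 of the *TIMP3* reads, the log2 difference was 9.38, and without H1792 DMSO replicate 1 that of *MMP7* was -6.29. *MMP2* was 29.1-fold higher in H1792 (4.86 ± 0.08, adjusted p = 9.7e-20) and *MMP14* 21.1-fold (4.4 ± 0.11, adjusted p = 2.8e-17). The RNAs of the MMP2 gelatinase and of its membrane-bound activator MMP14 were therefore both much more abundant, per read sequenced, in H1792. *MMP1* was 5.32-fold higher (2.41 ± 0.54, adjusted p = 5.5e-04), a value that was 3.55 on the log2 scale without A549 DMSO replicate 2. *PLAUR* was 4.35-fold higher (2.12 ± 0.07, adjusted p = 1.1e-15) and *TIMP1* 2.67-fold (1.41 ± 0.08, adjusted p = 4.4e-12), whereas *TIMP2* was 2.14-fold lower (-1.10 ± 0.06, adjusted p = 6.5e-12). *PLAU* differed by 0.20 ± 0.06 (adjusted p = 0.00474), and this call was lost with total counts (0.09, adjusted p = 0.141), a scaling that moved the median of all genes from 0.04 to -0.07. It was also lost without A549 DMSO replicate 2 (adjusted p = 0.0148), A549 DMSO replicate 3 (0.0101) or H1792 DMSO replicate 2 (0.0137).

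Levels were compared between genes per kilobase of the canonical transcript (RPKM). In A549 with DMSO the order was *TIMP1* (403 ± 18.5 RPKM, SD, n = 4), *TIMP2* (146 ± 9.11), *PLAU* (116 ± 6.29), *PLAUR* (42.8 ± 3.23), *MMP2* (11.5 ± 0.964), *MMP7* (4.97 ± 1.73) and *MMP14* (4.68 ± 0.910), with *TIMP3*, *MMP1* and *MMP10* at or under 0.0825 RPKM. *MMP7* and *MMP14* overlapped, as did the 3 lowest genes. In H1792 with DMSO it was *TIMP1* (1074 ± 144 RPKM, SD, n = 3), *MMP2* (335 ± 3.06), *PLAUR* (185 ± 11), *PLAU* (134 ± 2.38), *MMP14* (96.9 ± 1.84), *TIMP2* (68.0 ± 1.80), *TIMP3* (39.2 ± 1.78), *MMP1* (0.356 ± 0.0742), *MMP7* (0.111 ± 0.0959) and *MMP10* (0.0114 ± 0.00223), with no overlap between neighbours. Summed RNA of these TIMPs thus exceeded that of the 5 metalloproteinases in both lines, by a larger ratio in A549. The comparison depends on the genes chosen. In A549 with DMSO, *MMP24* and *MMP15*, which are not among the 5, were at 70.8 and 55.8 CPM, against 42.1 CPM for *MMP2*. The inhibitor *TIMP4*, also left out, was at 9.79 CPM there.

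**Figure D3:**
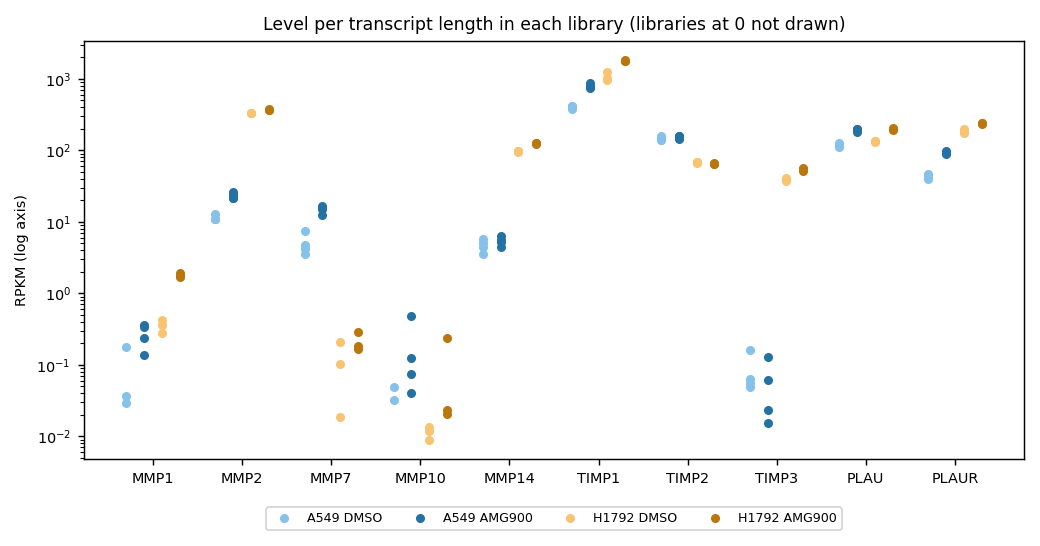
Level of each gene per kilobase of transcript in every library (RPKM, log axis), with A549 in blue and H1792 in orange, DMSO in the lighter and AMG900 in the darker shade; libraries with no read are not drawn. *TIMP3*, *MMP2* and *MMP14* of H1792 lie far above those of A549, *MMP7* lies far below, and *PLAU* lies at a similar height in both.

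Ratios of these per-length levels are given as a description, without a test. The summed RPKM of the 5 metalloproteinases over that of the 3 TIMPs was 0.0386 ± 0.00338 (SD, n = 4) with DMSO and 0.0466 ± 0.00400 with AMG900 in A549, and the groups did not overlap. In H1792 it moved the other way, from 0.370 ± 0.0441 (SD, n = 3) to 0.260 ± 0.000577, also without overlap. The share of TIMP RNA that was *TIMP1* went from 73.4% to 83.9% in A549 and from 90.8% to 93.8% in H1792. *MMP14* over *TIMP2* was 0.0320 ± 0.00498 and 0.0355 ± 0.00612 in A549, which overlapped, and went from 1.43 ± 0.0153 to 1.91 ± 0.0306 in H1792. *PLAU* over *PLAUR* fell on either side of 1, at 2.73 ± 0.277 and 2.06 ± 0.157 in A549 and 0.724 ± 0.0423 and 0.832 ± 0.0263 in H1792.

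Genes with GC-rich transcripts had higher fold changes in both lines (Spearman's rho of 0.500 over 12746 genes in A549 and 0.483 over 14317 in H1792, where genes do not count as replicates), so each result was refitted with a GC offset. *MMP1*, *MMP7* and *MMP10* had GC contents of 43.33% to 43.72% and the other 7 genes 48.66% to 58.9%. In A549 all 5 calls held with the offset, with log2 fold changes of 0.59 for *TIMP1*, 0.69 for *MMP2*, 0.49 for *PLAU*, 0.80 for *PLAUR* and 1.73 for *MMP7*. In H1792, 4 of the 6 held: *MMP1* at 2.52, *TIMP1* at 0.47, *TIMP3* at 0.43 and *PLAU* at 0.41.

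**Figure D4:**
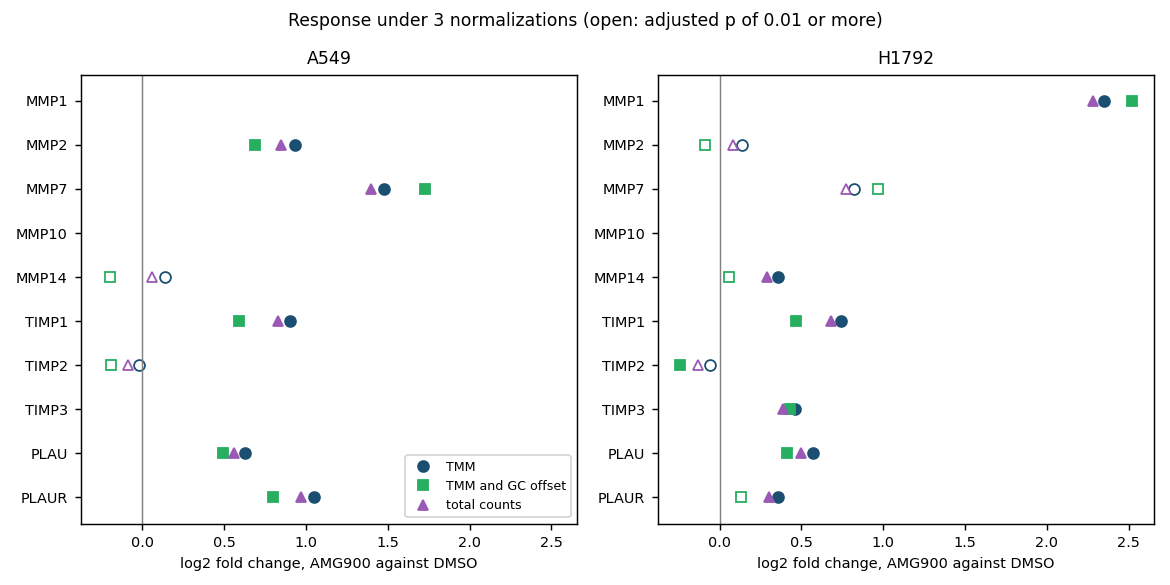
Log2 fold change of AMG900 against DMSO (horizontal axis) in A549 and H1792 with TMM scaling (circles), TMM with a GC offset (squares) and total counts (triangles); open marks have an adjusted p of 0.01 or more, and genes under the filter have no mark. The squares of *MMP2*, *MMP14*, *TIMP1*, *TIMP2*, *PLAU* and *PLAUR* lie to the left of the circles in both lines, as does that of *TIMP3* in H1792. Those of *MMP7* and, in H1792, *MMP1* lie to the right.

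Other genes of matrix breakdown were counted in lists. Of 18 further metalloproteinase genes, 5 were tested in A549 with 2 higher and none lower, where 17.2% of all genes were higher and 17.8% lower, and 9 in H1792 with 3 higher and none lower, against 16.2% and 18.8%. The leading ones were *MMP17* (log2 fold change 1.04 ± 0.12, edgeR adjusted p = 5.5e-06) and *MMP15* (0.86 ± 0.09, adjusted p = 1.5e-06) in A549, both membrane-type enzymes. In H1792 they were *MMP9*, or gelatinase B, which went from 0.0959 to 0.560 CPM (2.53 ± 0.38, adjusted p = 3.4e-04), and *MMP24*, from 0.518 to 1.55 CPM (1.62 ± 0.36, adjusted p = 0.00369). With the GC offset the H1792 list had 1 gene higher and 2 lower, where 2176 and 3453 of all 15017 genes were. Of 6 other inhibitors and activators, 4 of 5 tested were higher in A549 (17.2% of all genes) and 2 of 5 in H1792 (16.2%), with *TIMP4* at 0.91 and *TFPI2* at 0.74 in A549, and *BSG*, a surface protein known as an inducer of metalloproteinases, at 0.59 and *TFPI2* at 0.21 in H1792. After the GC offset 2 of the 4 A549 calls were left, where 1816 of all 13174 genes were higher. The H1792 list then had 1 gene lower, where 3453 of all 15017 were.

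In the plasminogen system, 7 of 11 genes tested were higher in A549, against 17.2% of all genes, and 5 of 13 in H1792, against 16.2%, and none was lower in either, against 17.8% and 18.8%. *VTN*, the gene of vitronectin, a ligand of PLAUR, went from 35.7 ± 2.32 to 117 ± 8.50 CPM in A549 (log2 fold change 1.72 ± 0.09, edgeR adjusted p = 9.7e-10). *SERPINF2*, which encodes the main plasmin inhibitor, rose in both lines from low levels, by 1.55 ± 0.33 in A549 (adjusted p = 0.00153) and 2.42 ± 0.39 in H1792 (adjusted p = 5.5e-04), and *ST14*, which encodes matriptase, rose by 1.36 ± 0.29 in H1792 (adjusted p = 0.00287). The remaining 2 genes of this paragraph were chosen after their values were seen. *PLAT*, the tissue plasminogen activator, rose by 1.09 in A549 (adjusted p = 2.4e-05) and 1.32 in H1792 (adjusted p = 3.8e-07). *LRP1*, an endocytic receptor that clears proteases from the cell surface, rose by 1.47 in A549 (adjusted p = 1.5e-08) and was at 0.28 in H1792 (adjusted p = 0.0553), a difference in response of -1.27 (interaction, adjusted p = 5.6e-06).

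The ADAM and ADAMTS proteases were the next list. Of 11 tested in A549, 2 were lower and none higher, where 17.8% of all genes were lower and 17.2% higher, and of 15 in H1792, 6 were lower and 2 higher, against 18.8% and 16.2% of all genes. The A549 count of lower genes and the H1792 count of higher ones are thus near the shares over all genes. *ADAM9*, a membrane sheddase, was lower in both lines, by a log2 fold change of -1.41 ± 0.12 in A549 (82.5 to 30.9 CPM, edgeR adjusted p = 2.7e-07) and -1.43 ± 0.12 in H1792 (27.5 to 10.2 CPM, adjusted p = 1.1e-05). *ADAMTS4*, an aggrecanase, rose in H1792 from 0.0424 to 0.979 CPM (4.41 ± 0.41, adjusted p = 2.1e-05), and *ADAMTS5*, another aggrecanase, was lower there (-0.80 ± 0.21, adjusted p = 0.00822). *ADAM10*, also a sheddase, was lower by a similar amount in A549 (-0.64 ± 0.12, adjusted p = 5.4e-04) and H1792 (-0.69 ± 0.14, adjusted p = 0.00179), and *ADAM8* was higher in H1792 (0.82 ± 0.13, adjusted p = 5.3e-04).

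Of 12 cathepsins, cystatins and heparanase, 8 were higher and 1 lower in A549, against 17.2% and 17.8% of all genes, and 4 were higher and none lower in H1792, against 16.2% and 18.8%. *CTSB*, a lysosomal cysteine protease that can also be secreted, went from 1158 ± 56.8 to 2505 ± 45.6 CPM in A549 (log2 fold change 1.11 ± 0.06, edgeR adjusted p = 1.2e-09), and *CTSV* was lower there (-2.40 ± 0.20, adjusted p = 2.3e-07). In H1792 *CTSB* was at 0.20 (adjusted p = 0.00416) and *CTSV* was not called. *CTSS* rose by 1.49 ± 0.10 in A549 (adjusted p = 4.1e-08) and by 1.45 ± 0.20 in H1792 (adjusted p = 1.9e-04). *CSTB*, a cathepsin inhibitor, rose by 0.79 ± 0.11 in A549 (adjusted p = 3.4e-05) and 0.72 ± 0.08 in H1792 (adjusted p = 5.9e-05). In H1792 the count fell from 4 higher to 2 without DMSO replicate 3, AMG900 replicate 1 or AMG900 replicate 2. Over all genes these fits called 1524 of 15413, 1382 of 15142 and 1464 of 15381 higher, in that order. With the GC offset 2 genes of the H1792 list were lower, where 3453 of all 15017 were.

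Of 14 AP-1, ETS and RUNX factors, families that are known to bind metalloproteinase promoters, 4 were higher and 2 lower in A549 (17.2% and 17.8% of all genes), and 5 were higher and 2 lower in H1792 (16.2% and 18.8%). The counts of lower factors are no larger than the shares over all genes. In A549, *JUN* (log2 fold change 0.65 ± 0.07, edgeR adjusted p = 5.5e-06) and *ETV4* (0.52 ± 0.13, adjusted p = 0.0052) rose, and *ETS2* (-0.93 ± 0.07, adjusted p = 1.3e-07) and *ETV5* (-0.73 ± 0.12, adjusted p = 2.1e-04) fell. In H1792, *FOSL1* (0.94 ± 0.05, adjusted p = 1.2e-06) and *FOSB* (0.80 ± 0.09, adjusted p = 5.0e-05) rose, and *ETV5* (-0.70 ± 0.08, adjusted p = 5.6e-05) and *ETS1* (-0.37 ± 0.07, adjusted p = 0.00179) fell. *JUN* (0.65, edgeR adjusted p = 1.1e-05) and *ETS2* (0.29, adjusted p = 0.00106) were also called higher in H1792, and *FOSL1* in A549 (0.40, adjusted p = 4.7e-04). *ETV4* in H1792 and *FOSB* and *ETS1* in A549 were not called. After the GC offset 2 of the 14 factors were higher in A549, about the share over all genes (1816 of 13174). Whether any of them acts on the genes above was not tested.

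The 3 genes whose pattern was most like that of *PLAUR*, *MMP7* or *MMP1* were found by Pearson's r of log2 CPM centred within each line, over 14 libraries that share the same treatment contrast, as a description. For *PLAUR* they were *REEP2* (r = 0.996), *ZC3H12A* (0.995) and *MAN2B1* (0.995) among 8508 genes. For *MMP7* they were *THAP3* (0.968), *PCK2* (0.939) and *CCDC103* (0.937), and for *MMP1* they were *SH3RF2* (0.943), *UBE2Q1* (0.937) and *STX1A* (0.937), among 8509 genes each.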

How the data were processed

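RNA sequencing was performed on 14 libraries of A549 and H1792 cells. The authors deposited read counts per gene symbol, unnormalized, in one table per line. The submitters' processing notes name STAR, HTSeq and hg19 (GRCh37); their versions, the annotation and the use of strand are not given in the sources used here. Counts were used as deposited, after leaving out 28 entries of the H1792 table that carry dates in place of symbols (0.101% to 0.117% of counts). Positions, transcript lengths and GC contents were taken from GENCODE on GRCh37: of 26786 names, 20637 matched by current symbol, 1268 by an older one, 276 matched several genes and 4605 none.

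In R 4.3.3, genes were filtered with filterByExpr, scaled by TMM factors and tested with the quasi-likelihood test of edgeR 4.0.16 (limma 3.58.1) within each line, with Benjamini-Hochberg adjustment over all genes tested and a threshold of 0.01. The paper's methods use DESeq2, which was run as an alternative (version 1.42.0). The interaction and the DMSO contrast came from one fit over all 4 groups. Genes under the filter were tested on CPM by exact permutation. The biological coefficient of variation was 12.8% in A549 and 9.60% in H1792, and depth limits the genes with few reads. A count of 0 was taken to allow 3 counts, which covers counting error only. Standard errors were derived as the absolute log2 fold change divided by the square root of the F statistic of the edgeR test. RPKM is CPM per kilobase of the canonical transcript. Replicates of a group differed by more than sampling noise (chi-square per gene 3.24 to 45.2), so each library was kept.

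All 10 genes are named whatever their values. In the lists (other metalloproteinases, inhibitors and activators, plasminogen system, ADAM and ADAMTS, cathepsins, cystatins and heparanase, AP-1, ETS and RUNX factors, and cell type markers), up to 2 genes per direction and line with the largest change were named among those called with non-overlapping groups, and others are marked where they appear. Likeness used genes that averaged 100 reads or more per library in each table. A gene of the plasminogen list is not reported here by name. The genes and lists were chosen with earlier results of these data known. The alternatives were DESeq2, its size factors, total counts, no filter, a floor of 10 counts in all libraries, a block for replicate number, a GC offset (a natural spline with 5 degrees of freedom per library) with and without that block, an FDR of 0.05, a change of at least 2-fold, and each library left out. The main edgeR fit, the fit with the GC offset and DESeq2 were checked on simulated counts, which carried no GC effect. The other alternatives were not checked in this way.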

Additional observations from a re-analysis of the deposited data

Results flagged for a closer look

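*TIMP3* in A549 DMSO replicate 4 was at 0.772 CPM, apart from the other 3 A549 DMSO libraries at 0.235 to 0.299 CPM (Dixon's Q 0.88, above the critical value). It rests on 13 reads, and 1 of the 20 groups of 4 libraries tested in this way was marked, where chance marks about 1 in 20. The response of *MMP2* differed between the lines, with a log2 fold change in H1792 minus that in A549 of -0.86 (interaction term, edgeR adjusted p = 7.1e-06), and every AMG900 library was above every DMSO library in both lines. The response of *PLAUR* differed likewise, by -0.77 (adjusted p = 7.4e-06), with no overlap of the groups in either line.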

How the results depend on the processing

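The counts of genes called were the same or within 1.5 times of the main count except as follows. With a change of at least 2-fold required, 2 genes were higher in A549 (*MMP7* and *PLAUR*), 1 in H1792 (*MMP1*), and 0 had a lower response in H1792. With the GC offset, and with it and the replicate block together, 1 gene was lower in H1792 (*TIMP2*) and 4 were higher. Of all 15017 genes there, 3453 were lower and 2176 higher with the offset, and 3015 and 1807 with both. With at least 10 counts in every library 1 gene was lower in H1792 than in A549 with DMSO, since *MMP7* was not tested. Leaving out one library gave 5 to 5 genes higher and 0 to 0 lower in A549, 6 to 6 and 0 to 0 in H1792, 0 to 0 and 2 to 2 for the interaction, and 6 to 7 and 2 to 2 between the lines with DMSO.

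Directions turned for values that were not called at an FDR of 0.01. *TIMP2* in A549 was 0.02 with at least 10 counts, 0.03 without A549 DMSO replicate 1 and 0.01 without A549 AMG900 replicate 3. *MMP14* in A549 was -0.20 with the GC offset and -0.23 with the block as well, and *MMP2* in H1792 was -0.09 in both. In the interaction, leaving out one library gave *MMP1* -0.80 (A549 DMSO replicate 2) to 0.72 and *MMP7* -1.23 to 0.18 (H1792 DMSO replicate 1). The cause was not tested.

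Same-numbered libraries showed no shared deviation (r of -0.04 to 0.01 in A549 and -0.06 to 0.04 in H1792). Differently numbered libraries had r of -0.20 to 0.16 in A549. With so few libraries, such values cannot decide whether dishes of the same number were set up together. With the replicate block, 5 genes were higher in A549 and 6 in H1792 and the interaction had 2 lower. Between the lines 5 were higher, *PLAU* (0.21, edgeR adjusted p = 0.0916) and *MMP1* (2.64, adjusted p = 0.0181) not being called. In the blocked fit, however, the contrast between lines refers to the fitted level of replicate 1 in each line, not to the mean of the replicates. The 2 lost calls are therefore no check on the main contrast.

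Over all genes, 2439 were higher and 2827 lower in H1792, against 1382 and 1853 without AMG900 replicate 1, with 1464 higher without AMG900 replicate 2 and 1524 without DMSO replicate 3. In the interaction, 793 were higher with edgeR and 1416 with DESeq2. Depth limits *MMP1*, *MMP10* and *TIMP3* in A549 and *MMP7* and *MMP10* in H1792. Without a filter, edgeR gave *MMP10* in H1792 a log2 fold change of 3.01 (adjusted p = 0.0306) and *MMP1* in A549 one of 1.88 (0.0792).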
